A study of Homo sapiens with 8 samples.

Results

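Integrins and laminins were described as 1 gene module, comprising every integrin α and β subunit and every laminin α, β and γ chain of the deposited count table whose symbol is ITGA followed by digits, ITGAE, ITGAL, ITGAM, ITGAV or ITGAX, ITGB1 to ITGB8, or LAMA, LAMB or LAMC followed by a digit. The rule found 35 of the 20339 genes in the table: 15 integrin α, 8 integrin β, 5 laminin α, 4 laminin β and 3 laminin γ genes. ITGAM was not among them, and ITGA2B lay outside the rule.

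The libraries came from OVCAR3 and COV318, established human ovarian cancer cell lines in which matrix Gla protein (MGP), a secreted protein of the extracellular matrix, had been removed or added. OVCAR3-MGPKO was made by CRISPR-Cas9 with paired guides against exon 1 of MGP, from which clones were isolated, and was compared with OVCAR3-CTR. COV318-MGP carried a lentiviral MGP cDNA and COV318-CTR the empty vector, both packaged in HEK293T cells and selected with puromycin. Each of the 4 populations was sequenced as adherent bulk cells in serum medium (RPMI for OVCAR3, DMEM for COV318) and as OCSC, the ovarian cancer stem cell-enriched spheres that grow without attachment in serum-free medium with B27, EGF and FGF2. All OVCAR3 libraries were at passage 4 and all COV318 libraries at passage 18, so line and passage cannot be told apart. The 8 libraries, 1 per condition, held 12294591 to 37393919 counts each. The members took 0.198 to 0.643% of them.

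Integrins are receptors of the plasma membrane, each made of 1 α and 1 β subunit, that bind matrix proteins outside the cell and the cytoskeleton inside it. Laminins are trimers of an α, a β and a γ chain and are main components of basement membranes, the sheets of matrix under epithelia. Ovarian cancer cells use integrins to attach to the mesothelium and to the collagen, fibronectin and laminin beneath it, and laminin-bound integrins give epithelial cells their polarity and anchorage.

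MGP itself was checked first. The bulk library of COV318-MGP had 40393 MGP counts and its OCSC library 28694, whereas those of COV318-CTR had 1 and 0. In OVCAR3 it was at 0 in both bulk libraries, at 1 in OVCAR3-CTR OCSC and at 2 in the OCSC library labelled OVCAR3-MGPKO. All 4 OVCAR3 values lie at or under the floor of 3 counts used here, so MGP counts do not check the OVCAR3 labels, and every direction below for OVCAR3-MGPKO is that of the libraries labelled so.

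The COV318-MGP libraries also stood apart by their epithelial genes. Of 12 epithelial ovarian carcinoma markers, 12 were above the floor in each of the other 6 libraries and 5 in each COV318-MGP library, where KRT7, PAX8 and SOX17 were at 0 in both cultures. Their normalized counts summed to 2013 in bulk and 8492 in OCSC of COV318-MGP, to 51414 and 20899 in COV318-CTR and to 142878 to 285237 in OVCAR3. The 5 above the floor in COV318-MGP were EPCAM, KRT8, KRT18, CDH1 and WT1, and not all were lower than in COV318-CTR. In OCSC KRT8 had 983 counts against 106 and KRT18 4810 against 2396, and in bulk CDH1 had 417 against 505. EPCAM and WT1 in both cultures, KRT8 and KRT18 in bulk and CDH1 in OCSC were lower. Of 12 leukocyte markers 6 were in the table, summing to 29.6 to 208 normalized counts. Of 8 endothelial markers 6 were in it, summing to 109 to 1178, and of 10 fibroblast markers 9, summing to 221 to 5806 with the highest sum in COV318-CTR bulk. None of 6 platelet markers was in it. The part of these genes in the results below was not tested. Nor was it tested whether the COV318-MGP libraries come from the same line as COV318-CTR, so a difference between them cannot be ascribed to MGP alone, and every direction for COV318-MGP is that of the libraries labelled so. In bulk RNA, fewer cells of a type and less RNA per cell cannot be told apart.

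With 1 library per condition, a comparison of 2 libraries has no replicate check and no p-value. Its log2 fold change (log2FC) is the difference in log2(normalized count + 1), where counts were first scaled by a size factor per library, and its interval is a 95% exact Clopper-Pearson interval of the ratio of the 2 normalized counts that covers counting error only. A gene was counted as higher or lower when log2FC was at least 1 in size and the interval excluded no change.

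The 4 upstream sequences below precede genes whose levels separate these populations, and those of LAMA3 and LAMB3 were also chosen for a motif match. ITGA8 was at 0 in COV318-CTR and high in COV318-MGP, and LAMA5 was high in COV318-CTR and low in COV318-MGP. Both are shown with the CG dinucleotides in capitals. LAMA3 and LAMB3 were higher in each OVCAR3 library than in any COV318 library, and are shown with matches to TGANTCA, the core of the AP-1 motif, in capitals. They are the only 2 members with a match among those with a sequence, and starts of LAMB3 without a match are not printed. Sequences are from RefSeq on GRCh38.p14, 5′ to 3′ on the strand of the gene, and end 1 base before an annotated transcript start, except that of LAMB3, whose last 25 bases are left out because an annotated exon of another transcript begins there. The spans were chr10:15719923-15720172 on the minus strand for ITGA8, chr20:62367313-62367562 on the minus strand for LAMA5, chr18:23872770-23873019 on the plus strand for LAMA3 and chr1:209651400-209651624 on the minus strand for LAMB3. The spans of LAMA3 and LAMB3 lie inside the genes as GENCODE 44 annotates them, chr18:23689453-23956222 and chr1:209614870-209652425, before the start of a shorter RefSeq transcript, whereas the counts are per gene and do not tell transcripts apart.
ITGA8: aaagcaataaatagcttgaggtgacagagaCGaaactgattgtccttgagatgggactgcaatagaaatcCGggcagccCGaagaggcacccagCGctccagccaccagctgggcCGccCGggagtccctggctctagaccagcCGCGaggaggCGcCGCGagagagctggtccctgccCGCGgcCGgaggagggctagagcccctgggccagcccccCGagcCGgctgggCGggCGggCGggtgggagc
LAMA5: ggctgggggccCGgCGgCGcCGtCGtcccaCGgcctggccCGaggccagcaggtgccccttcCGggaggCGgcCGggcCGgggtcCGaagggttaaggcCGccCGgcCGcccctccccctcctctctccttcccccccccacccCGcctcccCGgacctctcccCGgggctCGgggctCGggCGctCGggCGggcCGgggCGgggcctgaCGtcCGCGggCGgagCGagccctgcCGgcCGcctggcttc
LAMA3: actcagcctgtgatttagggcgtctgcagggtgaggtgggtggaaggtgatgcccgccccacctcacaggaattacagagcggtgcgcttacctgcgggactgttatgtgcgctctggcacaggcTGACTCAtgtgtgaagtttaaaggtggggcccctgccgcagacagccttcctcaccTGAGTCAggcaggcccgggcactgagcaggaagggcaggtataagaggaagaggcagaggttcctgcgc
LAMB3: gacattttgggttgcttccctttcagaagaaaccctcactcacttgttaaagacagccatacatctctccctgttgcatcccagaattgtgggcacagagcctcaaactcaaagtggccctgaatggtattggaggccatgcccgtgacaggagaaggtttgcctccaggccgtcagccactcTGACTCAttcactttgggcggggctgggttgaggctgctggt

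The table of upstream sequences held 24 of the 35 members, with 31 starts in all. ITGA8 had 19 CG dinucleotides and LAMA5 had 32 in the 250 bases, against a median of 11 over the 35116 starts of all genes and 12 over the member starts. Fewer CG were found before 65.4% of all starts than before ITGA8 and before 90.5% than before LAMA5. Of other members that differed between the COV318 arms, ITGA4 and ITGB8 had 25 and 21 CG, and LAMA4 and ITGB6 had 5 and 0. The motif TGANTCA, read on both strands, was present before 6.57% of all starts and before 2 of the 31 member starts. LAMA3 had it at 125 and 69 bases before this internal start, and LAMB3 at 67 bases before 1 of its 3 starts. A match is a description of the letters and not a site of binding.

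Levels between genes were compared per kilobase of exon. In OVCAR3-CTR bulk LAMA5, the α chain of the most widespread epithelial laminins, was the most abundant member at 3667 normalized counts per kb, followed by ITGB8, a TGF-β-activating β subunit, at 1712 and by LAMB2 and LAMC1 at 1365 and 1257. In COV318-CTR bulk the order began with LAMC1 at 3536, ITGAV at 1562, LAMB2 at 857, ITGB8 at 831 and ITGB1 at 734. ITGB1, the common partner of most α subunits, varied from 246 to 734 normalized counts per kb over the 8 libraries which was the narrowest range of fold among the members. At the other end, ITGAL and ITGAX, α subunits of leukocytes, did not exceed 2.63 in any library. ITGB2, their β partner, was at 11.4 to 52.8 normalized counts per kb in OVCAR3 and at 0.151 to 1.02 in COV318. Without replicates the order of neighbouring members within a library has no error other than that of counting.

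**Figure D1:**
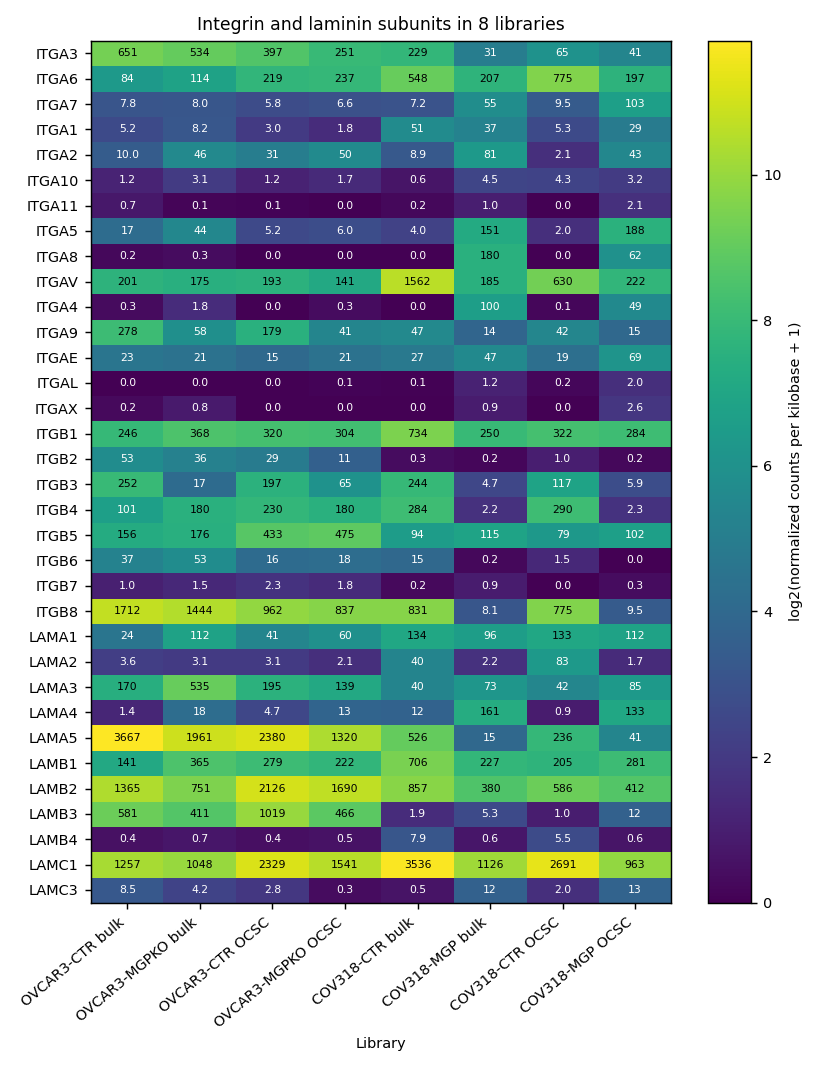
Levels of 34 members (rows) in the 8 libraries (columns), as normalized counts per kilobase of exon. Colour is log2(value + 1) and the printed number is the value itself. The COV318-MGP columns show ITGA8 at 180 and 62.0 where 4 of the other libraries are at 0, and ITGB8 at 8.13 and 9.54 where the other libraries are at 775 to 1712.

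COV318-MGP and COV318-CTR differed in most integrin and laminin genes. In bulk, 12 members were higher and 16 lower in COV318-MGP, where 22.7% and 24.5% of all genes were. In OCSC, 14 were higher and 11 lower, where 22.6% and 22.9% of all genes were. The median log2FC of the members was -0.48 in bulk, against -0.01 over all genes, and -0.18 in OCSC, against 0. Both medians were the same with the members at 0 in 1 library set to their lower bound. In both cultures 11 members were higher (14.9% of all genes) and 11 lower (15.8% of all genes).

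The calls were also counted by subunit class, without a test between classes. Of 15 α integrins 9 were higher and 4 lower in bulk, and 10 higher and 3 lower in OCSC. Of 8 β integrins none was higher in either culture, 5 were lower in bulk and 4 in OCSC. The laminin α, β and γ chains each held members on both sides.

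Among the receptors for fibronectin and other ligands with the RGD motif, ITGA8, whose heterodimer with ITGB1 binds nephronectin and fibronectin, had 0 counts in both COV318-CTR libraries, and 2398 in bulk and 317 in OCSC of COV318-MGP. The bulk value was 816-fold higher and the OCSC value 102-fold higher, taking 3 counts, the floor, for the COV318-CTR library. The intervals of the log2 ratio began at 9.37 in bulk and 6.36 in OCSC. In OVCAR3 ITGA8 did not exceed 2 counts, so COV318-MGP held the only libraries with more than the floor. ITGA5, the α subunit of the main fibronectin receptor, was at 29.6 normalized counts in COV318-CTR bulk and 1116 in COV318-MGP bulk, a log2FC of 5.19 (interval 4.85 to 5.65). In OCSC it was at 14.9 and 1390, a log2FC of 6.45 (5.66 to 7.61). ITGAV, the α partner of ITGB3, ITGB5, ITGB6 and ITGB8, was the member with most counts in COV318-CTR bulk and went the other way. It was at 30212 normalized counts in COV318-CTR bulk and 3576 in COV318-MGP bulk, a log2FC of -3.08 (-3.12 to -3.04), and at 12186 and 4290 in OCSC, a log2FC of -1.51 (-1.57 to -1.45).

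In bulk, ITGB8, ITGB3 and ITGB6 differed more than their partner ITGAV, and ITGB5 and ITGB1 differed less. ITGB8 was at 12599 normalized counts in COV318-CTR bulk and 123 in COV318-MGP bulk, a log2FC of -6.66 (-6.87 to -6.49), and at 11753 and 145 in OCSC, a log2FC of -6.34 (-6.64 to -6.06). ITGB3, the vitronectin receptor subunit, was at 1669 and 31.9 in bulk, with a log2FC of -5.67 (-6.11 to -5.33), and at 797 and 40.1 in OCSC, with a log2FC of -4.28 (-4.92 to -3.76). ITGB6, an epithelial subunit, had 163 counts in COV318-CTR bulk and 2 in COV318-MGP bulk, a log2 ratio of -6.32 (-9.38 to -4.44). In OCSC it had 6 and 0, which is 2.08-fold lower if 3 counts are taken for the 0. The interval of its log2 ratio there ended at -0.29. ITGB5 was not called in either culture, at 611 and 751 normalized counts in bulk and 513 and 666 in OCSC. ITGB1 was lower in bulk, at 10681 and 3646 with a log2FC of -1.55 (-1.59 to -1.51), and was not called in OCSC, at 4689 and 4129.

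ITGA4 and ITGA9 form a class of α subunits that bind VCAM1, fibronectin and osteopontin. ITGA4 had 0 counts in COV318-CTR bulk and 1930 in COV318-MGP bulk, at least 657-fold more when normalized. In OCSC it had 1 and 361 counts, a log2 ratio of 8.44 (5.95 to 13.75). Exons of CERKL on the opposite strand overlap 26.4% of its exon length, and whether counting used the strand is not given in the sources used here. ITGA9 was on the opposite side, at 386 and 112 normalized counts in bulk and 346 and 125 in OCSC, with log2FC values of -1.77 (-2.01 to -1.55) and -1.47 (-1.85 to -1.11).

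The collagen receptors were mostly higher in COV318-MGP. ITGA2 was at 70.6 and 640 normalized counts in COV318-CTR and COV318-MGP bulk, a log2FC of 3.16 (2.92 to 3.45), and at 16.3 and 342 in OCSC, a log2FC of 4.31 (3.52 to 5.41). ITGA11 was higher in both cultures at low counts, with 4 and 19 in bulk and 0 and 16 in OCSC. ITGA10 was higher in bulk, with 7 and 51 counts, and was not called in OCSC, with 18 and 14. ITGA1 was not called in bulk, at 941 and 692 normalized counts, and was higher in OCSC, at 98.1 and 538. The bulk and OCSC differences of ITGA1 and ITGA10 were not tested against each other.

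Of the laminin receptors, ITGA6 and ITGB4, which together anchor epithelial cells at hemidesmosomes, were both lower. ITGB4 was at 1923 normalized counts in COV318-CTR bulk and 14.8 in COV318-MGP bulk, a log2FC of -6.92 (-7.62 to -6.47), and at 1962 and 15.7 in OCSC, a log2FC of -6.87 (-7.97 to -6.12). ITGA6 was at 3663 and 1385 in bulk and 5176 and 1318 in OCSC, with log2FC values of -1.40 (-1.47 to -1.34) and -1.97 (-2.08 to -1.87). The difference was larger in ITGB4 than in ITGA6, which also pairs with ITGB1, and their intervals did not overlap. ITGA3 was lower in bulk, at 2242 and 306 with a log2FC of -2.87 (-3.00 to -2.74), and was not called in OCSC, at 639 and 407. ITGA7, the laminin receptor subunit of muscle, was higher in both cultures, at 65.7 and 499 in bulk and 86.2 and 935 in OCSC, with log2FC values of 2.91 (2.65 to 3.21) and 3.42 (3.05 to 3.85).

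The leukocyte α subunits ITGAL and ITGAX were called higher in both cultures on few counts. ITGAL had 1 and 21 counts in bulk and 1 and 14 in OCSC. ITGAX had 0 and 11 in bulk and 0 and 13 in OCSC, and ITGB2, without which neither reaches the cell surface, had 1 or 2 counts in COV318-MGP. ITGAE, the α subunit of intraepithelial lymphocytes, was higher in OCSC, at 128 and 455 normalized counts with a log2FC of 1.82 (1.48 to 2.19), and was at 178 and 313 in bulk, a log2FC of 0.81 (0.62 to 1.01) that did not reach the threshold but did, at 1.11, when scaled by library totals. ITGB7, its β partner, had 7 counts or fewer in each COV318 library.

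Among the laminin α chains, LAMA5 and LAMA4 changed places. LAMA5 was at 7515 normalized counts in COV318-CTR bulk and 218 in COV318-MGP bulk, a log2FC of -5.10 (-5.26 to -4.96), and at 3376 and 587 in OCSC, a log2FC of -2.52 (-2.68 to -2.37). LAMA4, the α chain of vessel and mesenchymal basement membranes, was at 148 and 1928 in bulk, a log2FC of 3.69 (3.52 to 3.88), and at 10.4 and 1598 in OCSC, a log2FC of 7.13 (6.22 to 8.58). Per kb, LAMA5 stood above LAMA4 in both COV318-CTR libraries, at 526 against 12.4 in bulk and 236 against 0.868 in OCSC. In COV318-MGP LAMA4 stood above LAMA5, at 161 against 15.2 in bulk and 133 against 41.1 in OCSC. LAMA2, the α chain of the muscle basement membrane, was lower in both cultures, at 1057 and 57.7 normalized counts in bulk and 2185 and 45.8 in OCSC. LAMA1, the α chain of the embryonic basement membrane, was not called in either culture. LAMA3 was at 608 and 1225 in OCSC, where its log2FC of 1.01 (0.84 to 1.19) lay just past the threshold, and at 576 and 1061 in bulk, where its log2FC of 0.88 (0.77 to 0.99) lay just under it. Scaled by library totals, the values were 0.96 in OCSC and 1.18 in bulk.

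LAMC1, the γ chain of most laminins, was lower in both cultures, at 29869 and 9511 normalized counts in bulk and 22728 and 8131 in OCSC, with log2FC values of -1.65 (-1.68 to -1.63) and -1.48 (-1.53 to -1.44). LAMB1 was lower in bulk, at 13133 and 4219, and not called in OCSC, at 3813 and 5218. LAMB2 was lower in bulk, with a log2FC of -1.18 (-1.23 to -1.13) that became -0.88 and was not called when scaled by library totals, and not called in OCSC, with one of -0.51 (-0.59 to -0.42). LAMB3 was higher in both cultures from a low base, with 16 and 45 counts in bulk and 3 and 38 in OCSC. LAMC3, a γ chain of few tissues, was at 4.85 and 107 normalized counts in bulk and 17.8 and 113 in OCSC, with log2FC values of 4.21 (3.51 to 5.62) and 2.60 (1.78 to 3.68). LAMB4 was lower in both, with 103 and 8 counts in bulk and 26 and 3 in OCSC.

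**Figure D2:**
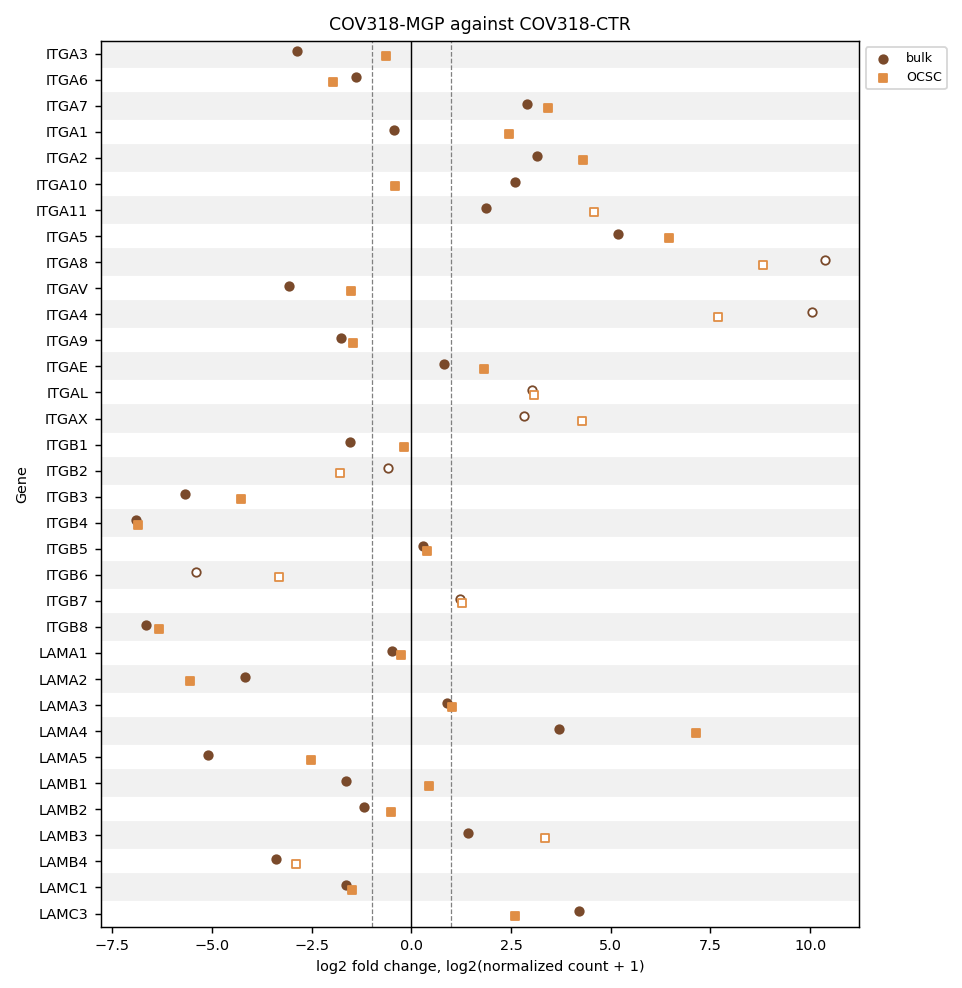
Difference of COV318-MGP from COV318-CTR for 34 members, as log2FC of normalized counts + 1, in bulk (circles) and OCSC (squares). Hollow markers have 3 counts or fewer in at least 1 library, and dashed lines are at log2FC of 1 in size. ITGA8 and ITGA4 lie farthest to the right and ITGB4 and ITGB8 farthest to the left in both cultures.

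Because a receptor or a laminin needs all its chains, each known complex was given the level of its least abundant subunit, which is a level of mRNA and not of assembled protein. ITGAV-ITGB8 was limited to 831 and 630 normalized counts per kb in COV318-CTR bulk and OCSC and to 8.13 and 9.54 in COV318-MGP. ITGA6-ITGB4 was at 284 and 290 in COV318-CTR and 2.20 and 2.33 in COV318-MGP. In the other direction, ITGA8-ITGB1 was at 0 in both COV318-CTR libraries and at 180 and 62.0 in COV318-MGP. ITGA5-ITGB1 was at 4.01 and 2.01 in COV318-CTR and at 151 and 188 in COV318-MGP, and ITGA4-ITGB1 at 0 and 0.139 against 99.6 and 48.5. ITGA2-ITGB1 was at 8.94 and 2.07 against 81.0 and 43.3, and ITGA7-ITGB1 at 7.24 and 9.49 against 54.9 and 103. The pairs of ITGB1 with the highest levels in both arms were those with ITGA6 and ITGAV. ITGA6-ITGB1 was at 548 and 322 in COV318-CTR bulk and OCSC and at 207 and 197 in COV318-MGP, and ITGAV-ITGB1 at 734 and 322 against 185 and 222.

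For the laminins, LAMA5-LAMB2-LAMC1 was at 526 and 236 normalized counts per kb in COV318-CTR bulk and OCSC and at 15.2 and 41.1 in COV318-MGP. LAMA4-LAMB1-LAMC1 was at 12.4 and 0.868 in COV318-CTR and at 161 and 133 in COV318-MGP. LAMB3, which also differed between the arms, was higher in each OVCAR3 library than in any COV318 library, at 411 to 1019 normalized counts per kb in the 4 OVCAR3 libraries and at 0.959 to 11.7 in the 4 COV318 libraries.

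**Figure D3:**
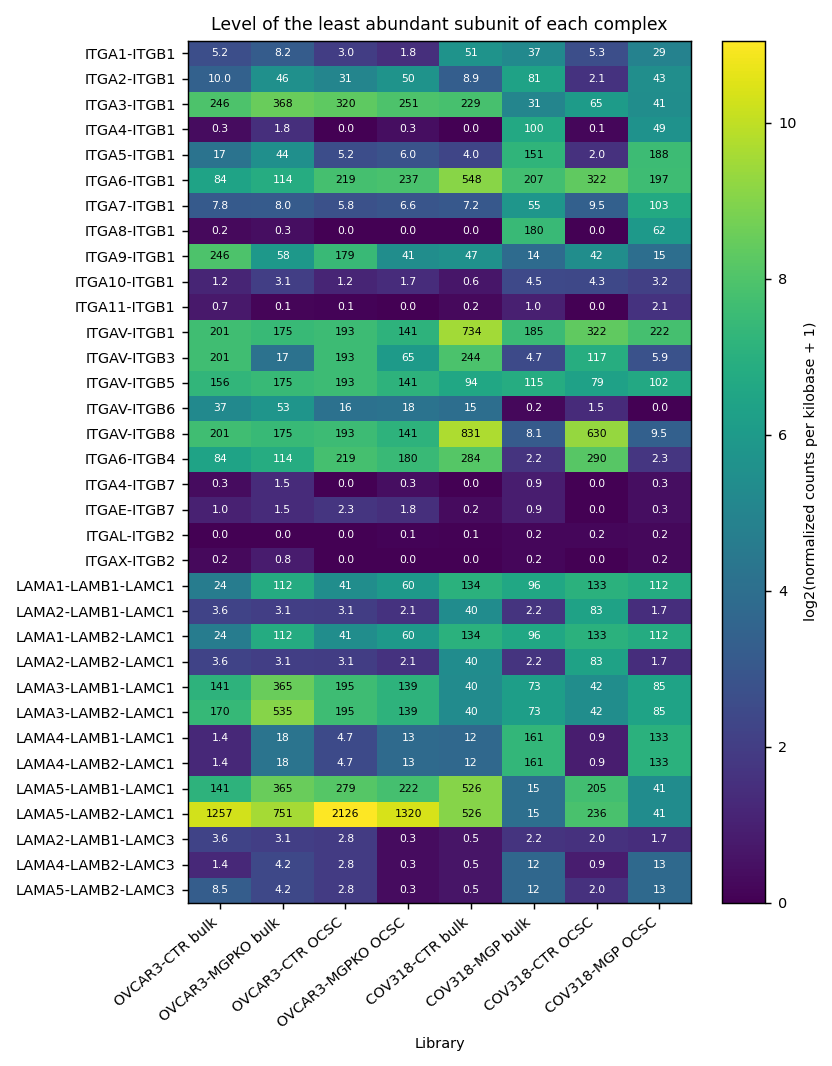
Level of the least abundant subunit of integrin and laminin complexes (rows) in the 8 libraries (columns), in normalized counts per kilobase of exon. Colour is log2(value + 1) and the number is the value. ITGAV-ITGB8 and ITGA6-ITGB4 are under 10 in the COV318-MGP columns alone.

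OVCAR3-MGPKO differed from OVCAR3-CTR in fewer members. In bulk, 7 were higher and 2 lower, where 9.25% and 6.12% of all genes were. In OCSC, 1 was higher and 5 lower, where 5.38% and 3.64% of all genes were. The median log2FC of the members was 0.17 in bulk and -0.20 in OCSC, against 0 over all genes in both. LAMA4 was higher in both cultures (1.83% of all genes), and ITGA9 and ITGB3 were lower in both (0.978% of all genes).

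ITGB3 had the largest difference in bulk, at 1719 normalized counts in OVCAR3-CTR and 115 in OVCAR3-MGPKO, a log2FC of -3.89 (-4.21 to -3.61). In OCSC it was at 1343 and 443, a log2FC of -1.60 (-1.75 to -1.45). A gene on the same strand overlaps 33.2% of its exon length. ITGA9 was at 2302 and 477 in bulk and 1482 and 342 in OCSC, with log2FC values of -2.27 (-2.43 to -2.11) and -2.11 (-2.28 to -1.96). The 4 control and knockout values of each gene did not overlap. ITGB2 was lower in OCSC, at 212 and 83.1 with a log2FC of -1.34 (-1.71 to -1.00), and not called in bulk, at 385 and 260. ITGB2-AS1, its antisense neighbour, had 33 to 86 counts in the OVCAR3 libraries.

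The receptors called higher in OVCAR3-MGPKO were called in bulk and not in OCSC, and the cultures were not tested against each other. ITGA2 was at 78.6 and 363 normalized counts in bulk, a log2FC of 2.19 (1.78 to 2.66), and at 246 and 393 in OCSC, a log2FC of 0.67 (0.45 to 0.90) that did not reach the threshold. ITGA5 was at 128 and 325 in bulk and 38.3 and 44.6 in OCSC, with a log2FC of 1.34 (0.99 to 1.72) in bulk. ITGA4 had 2 and 17 counts in bulk, a log2 ratio of 2.66 (0.59 to 5.82), and 0 and 4 in OCSC. ITGAV, ITGB1, ITGB8 and ITGA6 were not called in either culture, and the largest log2FC among their 8 values was 0.58, of ITGB1 in bulk.

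Of the laminin chains, LAMA4 was at 17.0 and 214 normalized counts in bulk, a log2FC of 3.58 (2.78 to 4.68), and at 56.0 and 157 in OCSC, a log2FC of 1.47 (1.05 to 1.93). LAMA1 was at 375 and 1771 in bulk, a log2FC of 2.24 (2.04 to 2.44), and at 657 and 947 in OCSC, where it was not called. LAMA3 and LAMB1 were also higher in bulk, at 2461 and 7753 and at 2615 and 6781, with log2FC values of 1.66 (1.58 to 1.74) and 1.37 (1.30 to 1.45), and in OCSC their values were -0.49 (-0.57 to -0.41) and -0.33 (-0.38 to -0.27). LAMA5 was not called, with log2FC values of -0.90 (-0.93 to -0.88) in bulk and -0.85 (-0.87 to -0.83) in OCSC. LAMB3 was lower in OCSC, at 4737 and 2167 with a log2FC of -1.13 (-1.20 to -1.06), and not called in bulk, at 2700 and 1911. LAMC3 had 27 and 3 counts in OCSC, a log2 ratio of -3.26 (-5.63 to -1.56). LAMC1 was not called in either culture, with log2FC values of -0.26 in bulk and -0.60 in OCSC.

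**Figure D4:**
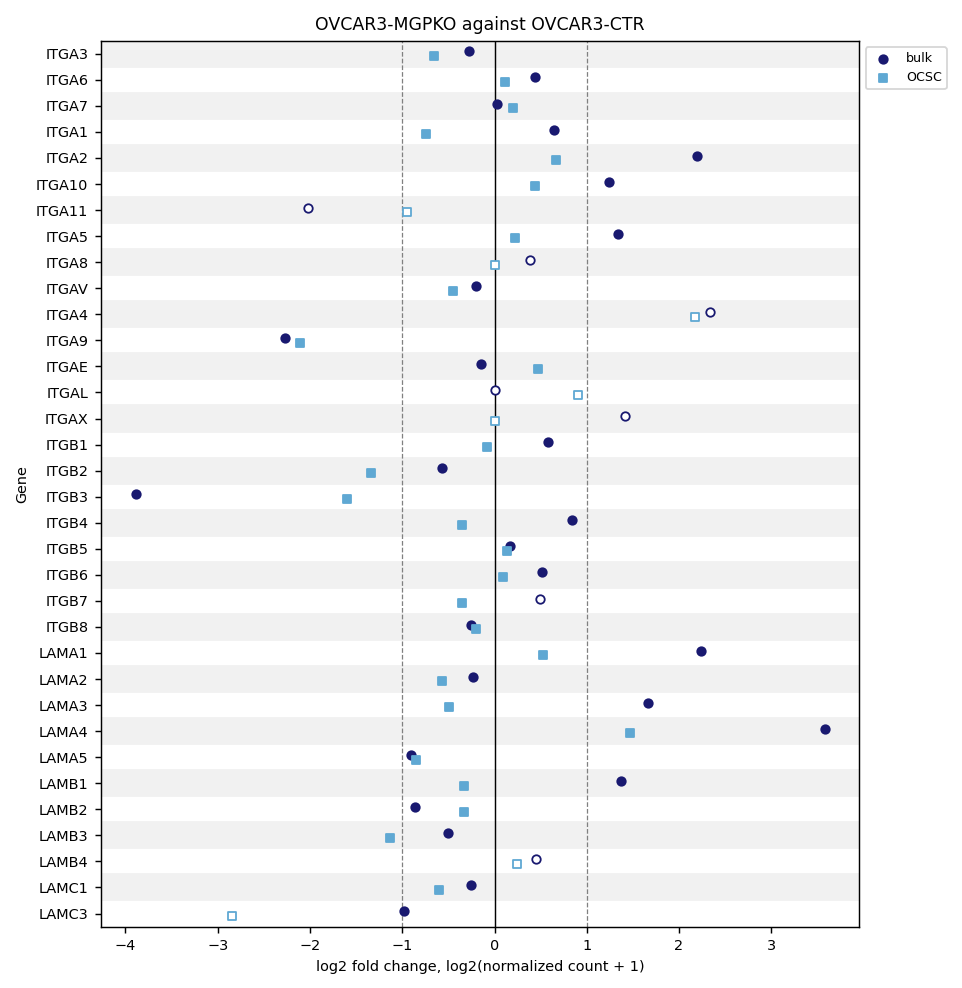
Difference of OVCAR3-MGPKO from OVCAR3-CTR for 34 members, as log2FC of normalized counts + 1, in bulk (circles) and OCSC (squares). Hollow markers have 3 counts or fewer in at least 1 library, and dashed lines are at log2FC of 1 in size. LAMA4 lies beyond the right line and ITGA9 and ITGB3 beyond the left line in both cultures.

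Removal and addition of MGP are opposite manipulations by design, which raises the question of which members went opposite ways in the 2 arms. MGP had 0 and 1 counts in OVCAR3-CTR bulk and OCSC and 0 and 2 in OVCAR3-MGPKO, so its counts do not show a removal. The directions below are those of the labelled libraries and cannot be ascribed to MGP alone. In bulk, LAMB1 was higher in OVCAR3-MGPKO and lower in COV318-MGP (2.32% of all genes), and no member was lower in OVCAR3-MGPKO and higher in COV318-MGP (1.55% of all genes). In OCSC, LAMB3 and LAMC3 were lower in OVCAR3-MGPKO and higher in COV318-MGP (0.954% of all genes), both from 12 counts or fewer in COV318-CTR, and no member was the other way round (1.46% of all genes). More members went the same way in both arms. In bulk ITGA2, ITGA4, ITGA5 and LAMA4 were higher in both (3.07% of all genes) and ITGA9 and ITGB3 lower in both (1.86%). In OCSC LAMA4 was higher in both (1.76%) and ITGA9 and ITGB3 lower in both (1.33%). The 2 arms share no library, and with 1 library per condition none of these counts was tested.

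OCSC and bulk cells were compared within each population and over the 4 populations together. Over the 4, edgeR's quasi-likelihood test with population as a block tested 33 of the 35 members and 18377 genes, and 0 of either (0% of all genes) passed an adjusted p of 0.05. At an unadjusted p under 0.05 there were 1370 genes, 6 of them members. DESeq2 called 251 genes, 1 of them a member. The populations are derivatives of 2 lines and not 4 independent lines, and the test has 3 residual degrees of freedom. The members' median log2FC was -0.28, against 0 to 2 decimals over all genes tested. Within single populations, over the 35 members, the median was -0.10 in OVCAR3-CTR, -0.48 in OVCAR3-MGPKO, -0.48 in COV318-CTR and 0.18 in COV318-MGP. Over all genes it was 0 in each.

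The 6 members at an unadjusted p under 0.05 were ITGB6, ITGA1, ITGA8, ITGA5 and ITGA3, with a negative log2FC, and ITGA6 with a positive one. The value of ITGA8 rests on the pair of COV318-MGP libraries, since it had 2 counts or fewer in the other 6 and was not tested without that population. ITGB6 had a log2FC of -1.90 (SE 0.513, edgeR adjusted p = 0.414, DESeq2 adjusted p = 0.0368). Its normalized counts in bulk and OCSC were 213 and 95.2 in OVCAR3-CTR, 306 and 101 in OVCAR3-MGPKO and 87.8 and 8.92 in COV318-CTR, and in COV318-MGP it had 2 and 0 counts. It was lower in 3 of the 4 populations, where 0.752% of all genes were, and was the one member that was called in at least 3 in the same direction. No member was higher in at least 3 (1.17% of all genes), and none was called in all 4, where 0.0836% of all genes were higher and 0.0492% lower. A gene on the same strand overlaps 16.7% of the exon length of ITGB6. ITGA1, a collagen receptor subunit, had a log2FC of -1.65 (SE 0.484, edgeR adjusted p = 0.491), from 97.1 and 56.0 normalized counts in OVCAR3-CTR, 153 and 33.2 in OVCAR3-MGPKO, 941 and 98.1 in COV318-CTR and 692 and 538 in COV318-MGP. ITGA6 had a positive log2FC in 3 populations and one of -0.07 in COV318-MGP, with a log2FC of 0.70 over the 4 (SE 0.268, edgeR adjusted p = 0.612). Without COV318-MGP the adjusted p values of ITGB6, ITGA1 and ITGA6 were 0.221, 0.202 and 0.202, and again none of the members tested passed.

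In OVCAR3-CTR, 5 members were higher in OCSC and 3 lower, where 9.63% and 9.22% of all genes were. In OVCAR3-MGPKO, 4 were higher and 9 lower, where 5.77% and 7.09% were. Both OVCAR3 populations shared ITGA6 and ITGB5 as higher (2.95% of all genes) and ITGA5, ITGB6 and LAMC3 as lower (2.65%). ITGA6 was at 558 and 1463 normalized counts in bulk and OCSC of OVCAR3-CTR and 760 and 1583 in OVCAR3-MGPKO, with log2FC values of 1.39 (1.22 to 1.56) and 1.06 (0.93 to 1.19). Scaled by library totals, the OVCAR3-MGPKO value was 0.97 and was not called. ITGB5, a vitronectin receptor subunit, was at 1016 and 2820 and at 1146 and 3093, with log2FC values of 1.47 (1.35 to 1.60) and 1.43 (1.33 to 1.54). ITGA5 was at 128 and 38.3 and at 325 and 44.6, with log2FC values of -1.72 (-2.32 to -1.19) and -2.84 (-3.33 to -2.43). ITGA2, ITGB4 and LAMA4 were called in OVCAR3-CTR, all higher, and not in OVCAR3-MGPKO. ITGB4 was at 680 and 1554 in OVCAR3-CTR and at 1217 and 1218 in OVCAR3-MGPKO.

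In OVCAR3-MGPKO, LAMA3 was at 7753 normalized counts in bulk and 2008 in OCSC, a log2FC of -1.95 (-2.02 to -1.88), and ITGB3 at 115 and 443, a log2FC of 1.94 (1.64 to 2.27). In OVCAR3-CTR neither was called, at 2461 and 2820 for LAMA3 and 1719 and 1343 for ITGB3. ITGB2 was at 260 and 83.1 in OVCAR3-MGPKO, a log2FC of -1.63 (-2.01 to -1.29). LAMB2 was higher in OCSC of OVCAR3-MGPKO, at 5156 and 11600, and not called in OVCAR3-CTR, at 9374 and 14598.

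In COV318-CTR, 3 members were higher in OCSC and 11 lower, where 8.61% and 6.59% of all genes were. The 11 included ITGAV and ITGB1, both of which lay among the most abundant members. ITGAV was at 30212 and 12186 normalized counts, a log2FC of -1.31 (-1.34 to -1.28), and ITGB1 at 10681 and 4689, a log2FC of -1.19 (-1.24 to -1.13). LAMB1 was at 13133 and 3813, a log2FC of -1.78 (-1.84 to -1.73), and LAMA5 at 7515 and 3376, a log2FC of -1.15 (-1.22 to -1.09). LAMA4 had the largest difference, with 148 and 10.4 normalized counts and a log2FC of -3.71 (-5.16 to -2.77). ITGA2 and ITGA3 were also lower, with log2FC values of -2.04 (-3.15 to -1.22) and -1.81 (-1.96 to -1.67). LAMA2 was higher, at 1057 and 2185, a log2FC of 1.05 (0.95 to 1.15). ITGA10 and LAMC3 were the other two called higher, from 7 and 9 counts in bulk.

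In COV318-MGP, 4 members were higher in OCSC and 2 lower, where 8.15% and 5.55% of all genes were. ITGA8 was at 1319 and 454 normalized counts, a log2FC of -1.54 (-1.71 to -1.37), and ITGA4 at 1061 and 517, a log2FC of -1.04 (-1.20 to -0.88). LAMA5 was higher, at 218 and 587, a log2FC of 1.43 (1.23 to 1.63). The remaining 3, ITGA11, ITGAX and LAMB3, had 11 to 45 counts, and ITGA11 and LAMB3 were not called when scaled by TMM or library totals. No integrin β subunit was called in COV318-MGP, whereas 3 of the 8 were in COV318-CTR, and the difference between the populations was not tested. Several lay at or near the floor in COV318-MGP bulk and OCSC, ITGB6 with 2 and 0 counts, ITGB2 with 2 and 1 and ITGB7 with 7 and 1. ITGB6 was among the 3 called in COV318-CTR. No member was called the same way in both COV318 populations, where 0.91% of all genes were higher and 0.315% lower.

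**Figure D5:**
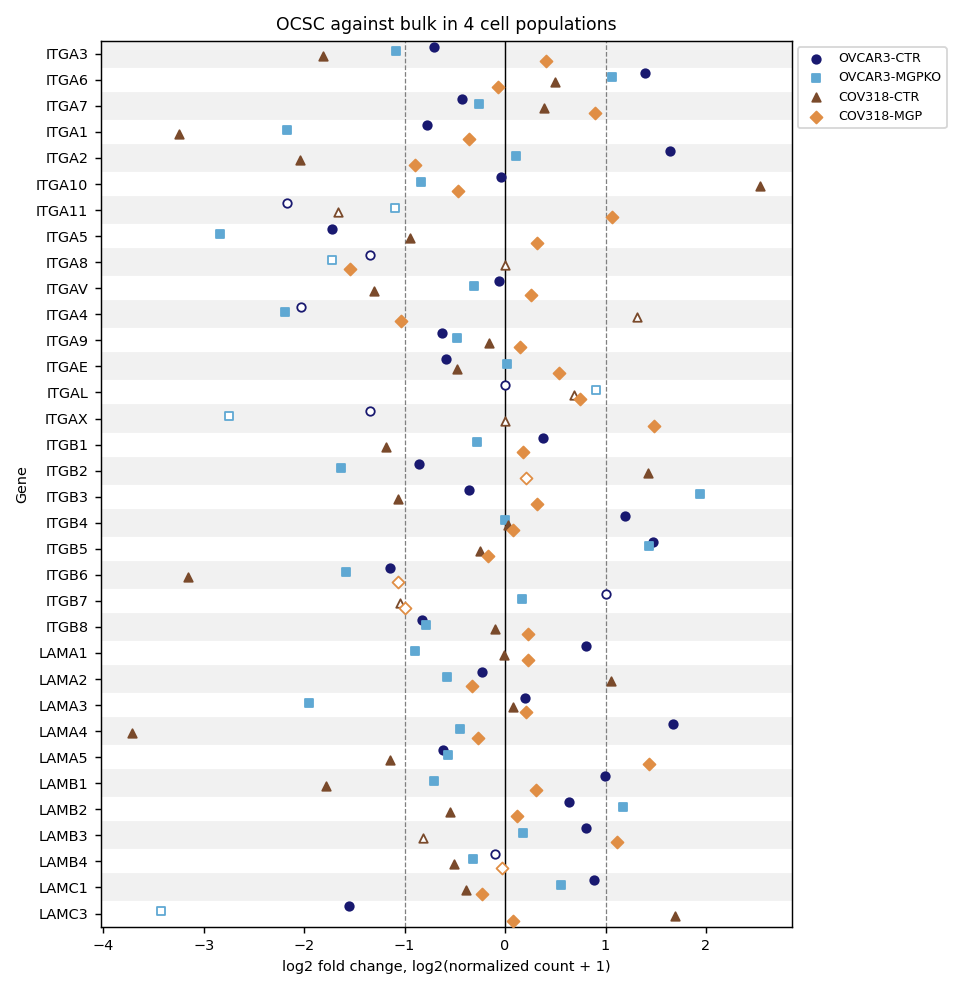
Difference of OCSC from bulk for 34 members in the 4 populations, as log2FC of normalized counts + 1. Hollow markers have 3 counts or fewer in at least 1 library, and dashed lines are at log2FC of 1 in size. ITGB6 lies at or beyond the left line in every population, with COV318-MGP at 2 counts or fewer, and no member lies beyond the right line in more than 2 populations with filled markers.

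The genes that work with the members were read from 5 lists. Of 31 genes of the actin-linked adhesion complex, which couples integrins to actin, 3 were higher and 1 lower in OVCAR3-MGPKO bulk, 1 and 1 in OVCAR3-MGPKO OCSC, 2 and 9 in COV318-MGP bulk and 7 and 4 in COV318-MGP OCSC. Over all genes the shares were 9.25% and 6.12%, 5.38% and 3.64%, 22.7% and 24.5%, and 22.6% and 22.9%, in the same order, and they are also the background of the other 4 lists. TNS4, a tensin of the integrin tail, was lower in both cultures of OVCAR3-MGPKO, with 431 and 141 counts in bulk and 127 and 47 in OCSC. NEDD9, a docking protein of adhesions, had 8835 counts in COV318-CTR bulk and 100 in COV318-MGP bulk. Of 8 hemidesmosome and tetraspanin partners, 1 was higher and 1 lower in OVCAR3-MGPKO bulk, 1 higher in OVCAR3-MGPKO OCSC, 4 lower in COV318-MGP bulk and 2 higher and 3 lower in COV318-MGP OCSC. CD9 and CD82, tetraspanins that bind laminin receptors, were lower in COV318-MGP in both cultures, with log2FC values of -1.85 and -3.45 in bulk and -2.92 and -4.57 in OCSC.

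Of 7 laminin receptors that are not integrins, 1 was higher and 1 lower in OVCAR3-MGPKO bulk, 1 lower in OVCAR3-MGPKO OCSC, 3 lower in COV318-MGP bulk and 3 higher and 2 lower in COV318-MGP OCSC. BCAM, a receptor for laminins that contain LAMA5, was lower in all 4, with log2FC values of -1.71 (-1.77 to -1.65) and -1.21 (-1.26 to -1.17) in OVCAR3-MGPKO and -6.17 (-6.42 to -5.96) and -4.53 (-4.86 to -4.23) in COV318-MGP. Of 15 basement membrane partners of laminin, 2 were higher and 2 lower in each OVCAR3-MGPKO comparison, 5 and 5 in COV318-MGP bulk and 6 and 4 in COV318-MGP OCSC. NID2, a nidogen that links laminin to collagen, was lower in OVCAR3-MGPKO, with log2FC values of -2.61 (-2.72 to -2.50) in bulk and -2.50 (-2.60 to -2.41) in OCSC. It was higher in COV318-MGP, with log2FC values of 4.47 (4.21 to 4.81) in bulk and 2.88 (2.54 to 3.25) in OCSC. NID1, the other nidogen, had 0 counts in COV318-CTR bulk and 6351 in COV318-MGP bulk, and TINAGL1, a matricellular protein, had 4737 and 0. Of 30 soluble and cell-bound ligands 23 were in the table, and 3 were higher and 1 lower in OVCAR3-MGPKO bulk, 2 and 2 in OVCAR3-MGPKO OCSC, 3 and 15 in COV318-MGP bulk and 6 and 12 in COV318-MGP OCSC.

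Between cultures, of the 23 ligands 6 were higher and 8 lower in OCSC of OVCAR3-CTR, 3 and 6 in OVCAR3-MGPKO, 2 and 9 in COV318-CTR and 8 and 0 in COV318-MGP. Over all genes the shares were 9.63% and 9.22%, 5.77% and 7.09%, 8.61% and 6.59%, and 8.15% and 5.55%, in the same order. FN1, the fibronectin gene, was higher in OCSC of both OVCAR3 populations, with 295 and 5122 counts in OVCAR3-CTR and 295 and 5568 in OVCAR3-MGPKO, and log2FC values of 3.39 (3.22 to 3.57) and 3.84 (3.67 to 4.02). In COV318-CTR it was lower, with 24788 and 497 counts and a log2FC of -4.17 (-4.31 to -4.05), and in COV318-MGP it was higher, with 5650 and 5450 counts and a log2FC of 1.33 (1.27 to 1.38). ITGA5, the α subunit of its main receptor, had log2FC values of -1.72, -2.84, -0.95 and 0.32 in OVCAR3-CTR, OVCAR3-MGPKO, COV318-CTR and COV318-MGP, of which the first pair was called. SPP1, the osteopontin gene and a ligand of ITGAV and ITGA9 heterodimers, was higher in OCSC of 3 populations, with 71 and 1378 counts in COV318-CTR, 1 and 92 in OVCAR3-CTR and 5 and 100 in OVCAR3-MGPKO. In the test over the 4 populations no gene of the 5 lists passed. ITGA2B, which lies outside the rule, was higher in OVCAR3-MGPKO bulk and in both COV318-MGP comparisons, with 71 and 215, 20 and 319 and 5 and 153 counts.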

How the data were processed

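RNA was extracted from adherent or sphere cultures of the 4 populations and sequenced as paired reads, 1 library per condition. The authors aligned reads to hg38 with STAR (version 2.7.5c in the submitters' processing notes) and deposited raw counts per gene, and a normalized signal, which equals each count over its DESeq2 median-of-ratios size factor. Several TruSeq kits are named without saying which served these libraries. The annotation and the strand setting are not given in the sources used here. Every deposited gene reached 10 counts in some library. No GEO column of sample values was left unused.

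The size factors were recomputed over 15518 genes and gave the deposited signal. Levels per kb used the union of exons in GENCODE 44 and were given as normalized counts per kb without the further scaling to a common total named in the design. Exact Clopper-Pearson intervals at 95% were taken on raw counts, and the floor was 3 counts. edgeR's quasi-likelihood test used TMM, filterByExpr, a population block and Benjamini-Hochberg adjustment over all genes tested. The edgeR test in its main setting and the counting intervals were tried on simulated data, and DESeq2 was not.

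Chosen to be given with values were members past that test and the 5 called members of largest log2FC in each comparison among those with at least 50 normalized counts. MGP, ITGA6, ITGB4, ITGB1, ITGAV and the chains LAMA3, LAMB3, LAMA5, LAMB1 and LAMC1 were chosen as well. Not every log2FC and interval of these genes is printed. Of the other lists, counts in the MGP comparisons, those of the ligands between cultures, and selected genes among the 2 largest are given, and the other members are named, except 1 that is not reported here. Members and lists were chosen with earlier results of these data known. Alternatives were TMM, RLE, library totals, size factors within a pair, pseudocounts of 0.5 and 5 and a minimum of 50 counts. Others were fold alone, a log2FC of 2, DESeq2, no filter, line in place of population as the block and leaving out each population. Tests ran in edgeR 4.0.16 and DESeq2 1.42.0 (R 4.3.3). Intervals came from scipy 1.17.1, tables from pandas 2.3.3 and numpy 2.4.6, and plots from matplotlib 3.10.9 (Python 3.11.15).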

Additional observations from a re-analysis of the deposited data

Results flagged for a closer look

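Over the 6 pairs of populations, 6 members were called one way from bulk to OCSC in one population and the opposite way in another, and these differences were not tested. Between populations that share a line or are both controls these were ITGA2, LAMA4, LAMC3 and LAMA5. ITGA2 had a log2FC of 1.64 in OVCAR3-CTR and -2.04 in COV318-CTR, a difference of 3.68. LAMA4 had 1.67 and -3.71, a difference of 5.38, from 11 and 60 counts in bulk and OCSC of OVCAR3-CTR and 275 and 7 in COV318-CTR. LAMC3 had -1.55 and 1.69, a difference of -3.23, on 9 to 49 counts. LAMA5 had -1.15 in COV318-CTR and 1.43 in COV318-MGP, a difference of -2.58. Over all genes, 1.78% were called in opposite directions between OVCAR3-CTR and COV318-CTR and 1.39% between COV318-CTR and COV318-MGP, against 3 and 1 of the 35 members. Between OVCAR3-MGPKO and COV318-CTR, ITGB3 had a log2FC of 1.94 and -1.07, a difference of 3 whose second value was -0.93 and not called when scaled by library totals, and LAMC3 one of -3.43 and 1.69, a difference of -5.11. These were 2 of the 35 members, against 1% of all genes. Between OVCAR3-MGPKO and COV318-MGP, ITGAX had -2.75 and 1.48, a difference of -4.23, from 5 and 0 counts in bulk and OCSC of OVCAR3-MGPKO and 11 and 13 in COV318-MGP. It was 1 of the 35 members, against 1.47% of all genes.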

How the results depend on the processing

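Counts of called members moved most with the fold threshold. At a log2FC of 2 in size, 2 members were called in OVCAR3-MGPKO OCSC (of 6), and between OCSC and bulk 0 in OVCAR3-CTR (of 8), 5 in OVCAR3-MGPKO (of 13), 5 in COV318-CTR (of 14) and 0 in COV318-MGP (of 6). By fold alone OVCAR3-CTR had 13, and with a minimum of 50 counts COV318-MGP had 3. In the test of OCSC against bulk over 4 populations, DESeq2 called 1 member (ITGB6) and 251 genes, and edgeR without a filter 15 genes, against 0. Leaving out each population gave 0 to 40 genes, the 40 without COV318-MGP and 0 in the other fits, and 0 members in each. No direction of a called value reversed under any alternative run. Scaling by library totals moved all log2FC values of a comparison by up to 0.30, in COV318-MGP bulk, and over the 8 comparisons it ended 6 calls of members and started 3, where TMM ended 3 and started 1. The call of LAMA3 in COV318-MGP OCSC ended under each of 3 other scalings. The test over 4 populations paired each OCSC library with the bulk library of its population. With cell line in place of population as the block, edgeR called 0 members and 0 genes as well, with 370 genes at an unadjusted p under 0.05. Members under about 20 counts have wide counting intervals, and biological spread is unknown. The cause of each change was not tested.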
